A study of Homo sapiens with 8 samples.

Results

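The endoplasmic reticulum (ER) is the main calcium store of the cell, and the 10 genes described here fill it, empty it, sense it or respond to it. They are the inositol 1,4,5-trisphosphate (IP3) receptor genes ITPR1, ITPR2 and ITPR3, the ER pump gene ATP2A2, the ER calcium sensor genes STIM1 and STIM2, the plasma membrane pump genes ATP2B1 and ATP2B4, and the calcium/calmodulin-dependent kinase genes CAMK2D and CAMK2G. They were chosen by name from the gene symbols of 10 rMATS tables, 1 for each of 5 kinds of alternative splicing event in whole cells and in the cytoplasm, and they are 10 of the 12067 genes with an event. All 10 had an event in whole cells (79 of 89379 events, on 70 distinct exons or splice sites), and 9 had one in the cytoplasm (33 of 43559 events). ITPR2 had no cytoplasmic event, and no member had a retained intron event in either fraction.

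U2OS cells, a human osteosarcoma line, received EGFP siRNA as a non-targeting control or CHERP siRNA#2, each at 20 nM for 48 h. CHERP, the calcium homeostasis endoplasmic reticulum protein, takes its name from the ER calcium store, and the study asked how its loss alters pre-mRNA splicing. Each siRNA had 2 whole-cell and 2 cytoplasmic RNA libraries, the latter from the supernatant of lysed cells, so that 8 libraries were compared. Every group, the control included, was transfected with an siRNA, 1 siRNA stands for CHERP depletion, and all cells are of 1 line.

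IP3 receptors are channels that let calcium out of the ER when IP3 binds them. The pump SERCA2, made from ATP2A2, carries calcium back into the store, and the plasma membrane pumps PMCA1 (ATP2B1) and PMCA4 (ATP2B4) export it from the cell. When the store runs low, STIM1 and STIM2 open ORAI channels in the plasma membrane, and the kinases CaMKII delta (CAMK2D) and CaMKII gamma (CAMK2G) are switched on by calcium-bound calmodulin. Several of these genes have short alternative exons in the coding sequence that change the activity or the partners of the protein.

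The 6 alternative exons below are shown because they carry the smallest p of STIM1 and of ATP2B1 or are known to separate protein isoforms. They were read from GRCh37 on the strand of the gene, with the exon in capitals and 10 bases of intron on each side in lower case, and all are coding in GENCODE 44 lifted to that build.
STIM1 93 nt, chr11:4105903-4105995, plus strand: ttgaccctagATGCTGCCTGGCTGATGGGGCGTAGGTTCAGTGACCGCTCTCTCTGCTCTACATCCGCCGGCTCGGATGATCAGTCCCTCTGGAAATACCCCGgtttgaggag
STIM2 24 nt, chr4:27009605-27009628, plus strand: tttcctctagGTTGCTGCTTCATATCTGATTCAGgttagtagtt
ATP2B1 39 nt, chr12:90021455-90021493, minus strand: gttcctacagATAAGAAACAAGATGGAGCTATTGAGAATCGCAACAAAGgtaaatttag
ATP2B4 178 nt, chr1:203702351-203702528, plus strand: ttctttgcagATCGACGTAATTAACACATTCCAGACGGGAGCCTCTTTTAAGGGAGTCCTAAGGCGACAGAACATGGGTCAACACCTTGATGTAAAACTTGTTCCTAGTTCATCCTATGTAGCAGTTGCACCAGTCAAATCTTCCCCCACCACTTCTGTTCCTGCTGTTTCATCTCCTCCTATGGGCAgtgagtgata
CAMK2D 42 nt, chr4:114424092-114424133, minus strand: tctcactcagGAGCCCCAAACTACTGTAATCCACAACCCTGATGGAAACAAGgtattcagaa
CAMK2G 69 nt, chr10:75585037-75585105, minus strand: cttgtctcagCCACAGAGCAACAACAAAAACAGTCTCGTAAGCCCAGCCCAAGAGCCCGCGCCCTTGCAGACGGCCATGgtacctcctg
All 6 are preceded by ag and followed by gt in the intron. The ATP2B4 exon is the only exon among the 6 whose length is not a multiple of 3, and the other exons add 31, 8, 13, 14 and 23 codons in the order given.

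CHERP itself was checked first. Its level in whole cells was 273 and 167 in the EGFP siRNA libraries and 6.17 and 30.8 in the CHERP siRNA libraries, a log2 fold of -3.45 (SE 0.57, limma, adjusted p = 0.00139). A level is the number of reads on a gene's skipped exon and alternative splice site events over their effective length, divided by the number of events and scaled between libraries, and is given per 1000 nt. In the cytoplasm CHERP had 388 and 273 against 36.9 and 49.6, and with too few reads for the filter of 20 reads per library its log2 fold was -2.66 without the filter (adjusted p = 4.04e-05). The reads on all events together numbered 29409956 to 35664568 in whole-cell libraries but only 5370756 to 6580099 in cytoplasmic ones. Of 14 marker genes, vimentin (VIM) carried nearly all of the reads, with levels from 21957 to 26775 in whole cells. Of the 9 markers of other cell types, 3 had an event in whole cells (CDH1, SYT1 and RBFOX3), and their summed level was 25 and 32.1 in the EGFP siRNA libraries and 191 and 156 in the CHERP siRNA libraries. In the cytoplasm 2 of them had an event (CDH1 and RBFOX3), with sums of 26.2 and 24.3 against 162 and 249. The other 6 markers of epithelium, blood and muscle had no event in either fraction. Nor had COL1A1, COL1A2 and SPARC among the 5 mesenchymal markers, so the lack of an event does not show that a gene was silent. RUNX2, of the osteoblast lineage, was at 37 and 38.2 against 0 and 9.32 in whole cells. The part of these markers in the results that follow was not tested.

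With EGFP siRNA, the member with the highest level in whole cells was ATP2A2, at 1417 ± 164 (SD, n = 2), followed by CAMK2D at 543 ± 120 and ATP2B1 at 343 ± 12.5. STIM1 (286 ± 99.2) and CAMK2G (232 ± 35.4) came next, then ITPR1 (174 ± 10.5), ITPR3 (173 ± 20.5), STIM2 (158 ± 14), ATP2B4 (108 ± 46.2) and ITPR2 (51.9 ± 1.2). Between neighbours in this order, the libraries overlapped for ATP2B1 with STIM1, STIM1 with CAMK2G, ITPR1 with ITPR3 and ITPR3 with STIM2, and did not overlap for the other neighbours. In the cytoplasm ATP2A2 was again highest, at 902 ± 74.5, and CAMK2G at 364 ± 6.68 stood above CAMK2D at 200 ± 19.1, STIM1 at 196 ± 23.9 and ITPR3 at 184 ± 7.12. These last 3 overlapped. ATP2B1 was at 45.3 ± 4.24 there, and STIM2, ATP2B4 and ITPR1 had too few reads to be tested. Events with few reads lower the mean over the events of a gene, so these orders are not orders of transcript abundance. For ITPR1, 203 of the 225 reads in the first whole-cell EGFP siRNA library fell on a single event, the exon of 161 nt. Levels of the fractions were scaled separately and rest on different events, so they were not set against each other.

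**Figure D1:**
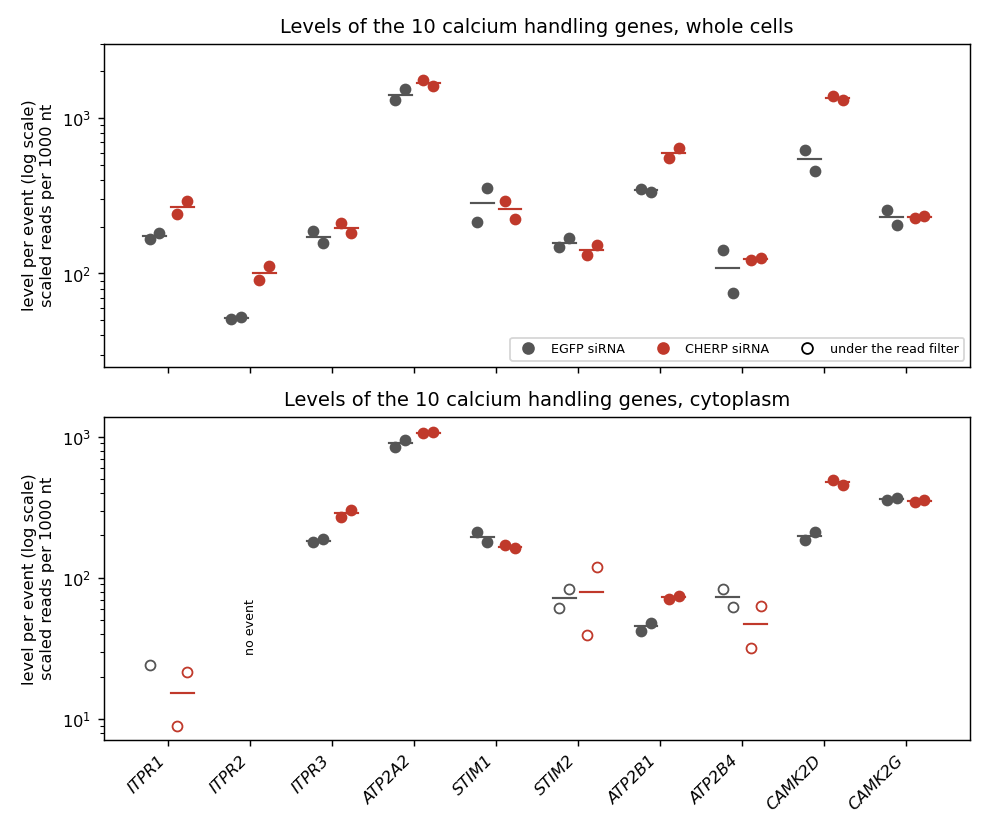
Level of each of the 10 genes in each library of whole cells (top) and cytoplasm (bottom), in scaled reads per 1000 nt of effective length per event on a log axis, with points for libraries and bars for the mean of 2. The CHERP siRNA libraries of CAMK2D lie above both EGFP siRNA libraries in both fractions, open points mark genes under the read filter, and the ITPR1 cytoplasmic EGFP siRNA library at 0 is not drawn.

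In whole cells, 4 of the 10 members were higher with CHERP siRNA and none was lower at an adjusted p under 0.05 (limma), where 19.0% of all 9660 genes tested were called higher and 17.7% lower. Without either the first or the second CHERP siRNA library 2 members passed. The 4 were CAMK2D, ATP2B1, ITPR2 and ITPR1. The median log2 fold was 0.26 over the members and 0.016 over all genes. In the cytoplasm 6 members passed the read filter, 3 of them were higher (CAMK2D, ITPR3 and ATP2A2) and none lower, beside 25.8% and 22.5% of 7293 genes. The median there was 0.44 against 0.014. The lean of all genes depends on the scaling. Scaled by total reads, 1676 genes were called higher and 1946 lower in whole cells, and 1466 higher and 2052 lower in the cytoplasm, while 4 and 2 members were called, all higher. In these bulk libraries, fewer cells that hold a transcript and less of it per cell cannot be told apart.

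CAMK2D, which encodes the delta form of CaMKII, had the largest log2 fold among the members tested in both fractions. In whole cells ITPR2 stood above it with the most-read event of each gene (log2 fold 2.11 against 1.25) and with the inclusion form only (1.37 against 1.30). In whole cells its control level was 627 and 458, against 1385 and 1306 with CHERP siRNA. Both CHERP siRNA libraries were above both control libraries by a wide margin, and the log2 fold was 1.33 (SE 0.15, adjusted p = 0.000202), a 2.51-fold rise. In the cytoplasm the levels were 186 and 213 against 497 and 458, and the log2 fold was 1.25 (SE 0.14, adjusted p = 3.38e-05). Counting only events that averaged 20 reads or more, all 8 of CAMK2D in whole cells and all 3 in the cytoplasm had more reads per length in both CHERP siRNA libraries than in either control library. The log2 folds of single events ran from 1.10 to 1.85 in whole cells and from 0.93 to 1.56 in the cytoplasm, though events of a gene share exons and reads. CAMK2D passed the threshold under every alternative run in both fractions, with log2 folds from 1.10 to 1.54 and from 1.14 to 1.57.

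CAMK2G, the gamma form, did not pass the threshold in either fraction. It was at 257 and 206 against 229 and 234 in whole cells, a log2 fold of 0.01 with a 95% interval from -0.31 to 0.33. In the cytoplasm it was at 359 and 369 against 344 and 355, and the interval of its log2 fold ran from -0.26 to 0.14. The intervals leave room for changes of that size in either direction. With the most-read event of the gene alone the cytoplasmic log2 fold was -0.53 (adjusted p = 0.0429), and the whole-cell value turned to -0.14.

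ATP2B1, the gene of the widely expressed plasma membrane pump PMCA1, rose in whole cells. It was at 351 and 334 in the controls against 551 and 642 after CHERP siRNA, and the groups did not overlap. The log2 fold was 0.79 (SE 0.13, adjusted p = 0.00151), all 10 events with enough reads were higher in both CHERP siRNA libraries, and their log2 folds ran from 0.65 to 1.30. In the cytoplasm, with a mean of 51.2 reads, its levels of 42.3 and 48.3 against 71.5 and 74.9 did not overlap either, but the log2 fold of 0.66 did not pass the threshold (SE 0.28, adjusted p = 0.0705). It passed there when limma was fitted without a trend of the variance on the level (adjusted p = 0.0167), a setting run first and replaced with its values known, with the most-read event alone (log2 fold 0.86, adjusted p = 0.0237) and with the inclusion form only (0.89, adjusted p = 0.0105). ATP2B4, the gene of PMCA4, was at 141 and 75.4 against 123 and 125 in whole cells, so that the CHERP siRNA libraries lay between the control libraries. Its log2 fold was 0.26 (adjusted p = 0.521), and without the second EGFP siRNA library it was -0.18, without the first 0.70 (adjusted p = 0.0288).

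Of the IP3 receptor genes, ITPR1 and ITPR2 passed in whole cells and ITPR3 in the cytoplasm. ITPR2 was at 51 and 52.7 against 90.7 and 111, on a mean of 63.8 reads, with a log2 fold of 0.92 (SE 0.29, adjusted p = 0.0321). ITPR1 was at 166 and 181 against 242 and 294, with a log2 fold of 0.61 (SE 0.19, adjusted p = 0.0314). For both genes the groups did not overlap. The call was lost for each when either CHERP siRNA library was left out, with adjusted p between 0.0773 and 0.326. For ITPR1 it was also lost without the trend of the variance, where the adjusted p was 0.05. Only 1 of the 5 ITPR1 events averaged 20 reads or more, the coding exon of 161 nt that is exon 60 of 62, and its log2 fold was 0.55. The 2 ITPR2 events with enough reads differed, at log2 folds of 0.45 and 2.08, and with the most-read event alone the fitted value was 2.11 (adjusted p = 0.0161).

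ITPR3 in the cytoplasm was at 179 and 189 against 272 and 302, with a log2 fold of 0.64 (SE 0.17, adjusted p = 0.0110). All 3 of its events were higher in both CHERP siRNA libraries, at log2 folds from 0.24 to 1.01, and with the most-read event alone the log2 fold was 0.23 (adjusted p = 0.409). In whole cells ITPR3 was at 187 and 158 against 210 and 183, which overlap, and the log2 fold of 0.19 did not pass (SE 0.21, adjusted p = 0.525). The 2 fractions share no ITPR3 event, so the difference between them could not be tested. ITPR1 had 2, 0, 1 and 2 cytoplasmic reads in the EGFP and CHERP siRNA libraries on its 1 event, too few to read its change from events. The authors' cytoplasmic means of normalized counts for ITPR1 are given below.

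ATP2A2, the gene of the ER pump SERCA2, was at 1301 and 1533 against 1750 and 1616 in whole cells. The groups did not overlap, but the log2 fold of 0.25 did not pass (SE 0.12, adjusted p = 0.138). Without the second EGFP siRNA library it was 0.37 and passed (adjusted p = 0.00416), and without the first it was 0.13 (adjusted p = 0.317). In the cytoplasm its levels of 849 and 954 against 1057 and 1083 gave the same log2 fold of 0.25 with a smaller error (SE 0.10, adjusted p = 0.0497). That call stood at the threshold and was lost under several alternatives, among them no filter on reads (0.059), scaling by total reads (log2 fold 0.14, adjusted p = 0.24) and limma without a trend (0.151).

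Neither calcium sensor gene passed the threshold. STIM1 was at 216 and 356 against 294 and 225 in whole cells, with a log2 fold of -0.11 and a 95% interval from -0.71 to 0.49. Its cytoplasmic levels of 213 and 179 against 170 and 164 gave a log2 fold of -0.22 (adjusted p = 0.315), with 2 of 3 events lower and 1 higher in both CHERP siRNA libraries. STIM2 was at 148 and 168 against 131 and 153 in whole cells, with a log2 fold of -0.15 and an interval from -0.60 to 0.30. With the most-read event alone the sign of the STIM2 value turned, to 0.34.

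**Figure D2:**
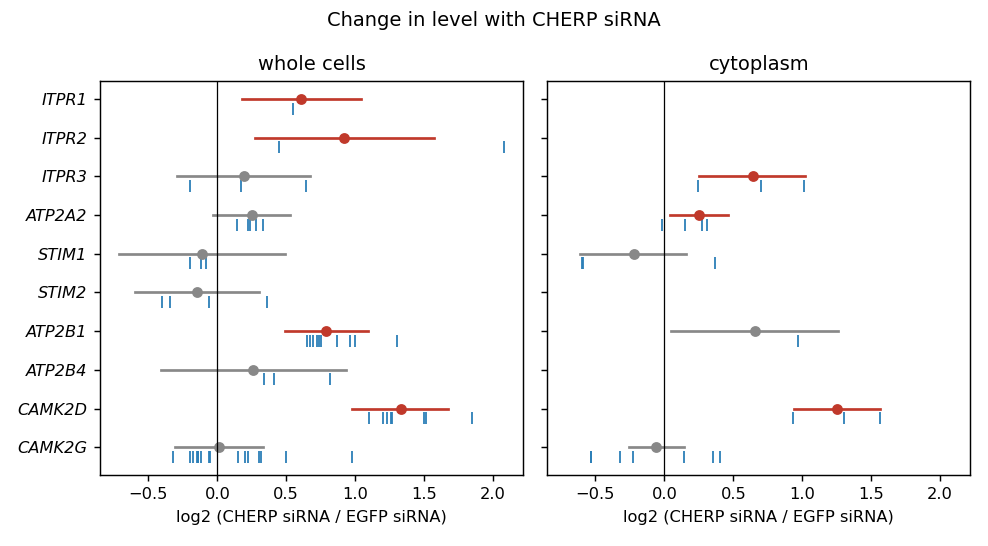
Log2 ratio of the level with CHERP siRNA over EGFP siRNA for each gene in whole cells (left) and cytoplasm (right), as points with 95% intervals from limma, red where the adjusted p is under 0.05, and blue ticks for single events averaging 20 reads or more. All CAMK2D and whole-cell ATP2B1 ticks lie right of 0, whereas those of CAMK2G lie on both sides.

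The change in level was tested for a difference between the fractions in the 5 members with enough reads on events found in both (ATP2A2, ATP2B1, CAMK2D, CAMK2G and STIM1). None passed, and none of 6505 genes did (0.00%), although 300 had an unadjusted p under 0.05. That count depended on 1 library, since without the second whole-cell EGFP siRNA library 52 genes passed, none of them a member, and 738 had an unadjusted p under 0.05. For CAMK2D the log2 fold in the cytoplasm differed from that in whole cells by -0.11 (SE 0.21), and for STIM1 by -0.33 (SE 0.40).

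The authors' table of cytoplasmic expression lists 6757 genes past their threshold, each with a mean of normalized counts in 2 conditions. Its header does not say which siRNA each condition is, so the means are given as those of the first and the second. It holds 6 members, all with a higher mean in the first condition, as 58.2% of the listed genes had. CAMK2D had authors' means of 1717 and 670, ITPR2 of 300 and 157, ATP2B1 of 748 and 400, ITPR3 of 2267 and 1291, ITPR1 of 538 and 335, and ATP2A2 of 4018 and 3376. CHERP is listed with 209 and 1685. It was thus lower in the first condition, as it was with CHERP siRNA in the cytoplasmic libraries above. By that reading the first condition is CHERP siRNA, and the 6 listed members have the higher mean with it. STIM1, STIM2, ATP2B4 and CAMK2G are not in the list. The ratios of the first to the second condition were largest for CAMK2D, at 2.56, and smallest for ATP2A2, at 1.19. These means come without a value per library and were not tested here.

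No splicing event of the 10 genes passed an FDR of 0.05 by the quasi-binomial test, 0 of 79 in whole cells and 0 of 33 in the cytoplasm. Of all events, 1.12% passed in whole cells and 0.416% in the cytoplasm. These shares moved with single libraries. In whole cells 1002 events passed, against 337 and 331 without the first and second CHERP siRNA library and 602 without the second EGFP siRNA library, and in the cytoplasm 181 passed, against 52 to 78 without any 1 library. At an unadjusted p under 0.05 there were 5 member events in whole cells (6.33% against 6.5% of all events) and 2 in the cytoplasm (6.06% against 4.23%). By limma on the log2 odds of inclusion the counts were 10 and 6, and no event of any gene passed an FDR of 0.05. The 10 were skipped exon events, of 66, beside 5243 of 63977 such events of all genes. In the cytoplasm 4 of 28 were skipped exon events, beside 2625 of 31924. The rest were 1 of 1 mutually exclusive event and 1 of 3 alternative 5′ splice sites, beside 380 of 4172 and 175 of 2269. Whether these shares differ was not tested. Of 26 member events found in both fractions, none passed the test of a difference in response between them, beside 0.0327% of all such events, and 1 had an unadjusted p under 0.05. The inclusion level below is the share of the form with the exon within its event, from reads over effective length. It sets that form against the event's other form alone, so it is not a share of all transcripts.

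The smallest p of a member was that of the STIM1 exon of 93 nt, exon 11 of 13 in the transcript that the annotation takes as representative. The exon adds 31 codons to the cytosolic part of the sensor. It was counted on 3 inclusion and 13 skipping reads and on 25 and 30 in the EGFP siRNA libraries, and on 2 and 33 and on 1 and 23 in the CHERP siRNA libraries. The inclusion levels were 0.123 and 0.336 against 0.0355 and 0.0257. Both CHERP siRNA libraries were lower, the control libraries differed widely from each other, and the FDR was 0.189. The log2 odds ratio was -3.4 (SE 1.42). In the cytoplasm the exon was at 0.105 and 0.128 against 0 and 0.15, on 8 to 19 reads, and the groups overlapped. The difference between fractions had an FDR of 0.941. The exon of 24 nt in STIM2, which adds 8 residues and is known to turn STIM2 into an inhibitor of calcium entry, was nearly always skipped in whole cells. Its levels were 0.0723 and 0 against 0.087 and 0.0694 on 20 to 33 reads, with a log2 odds ratio of 1.27 (95% interval -2.52 to 5.05).

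ATP2B1 had 3 of the 5 whole-cell events with an unadjusted p under 0.05. Its exon of 39 nt, exon 7 of 21, was skipped in 1 and 8 reads of the EGFP siRNA libraries and in none of the 145 and 159 reads of the CHERP siRNA libraries. The inclusion levels were 0.985 and 0.897 against 1 and 1 (FDR 0.384). The exon of 198 nt, exon 3, was at 0.86 and 0.911 against 1 and 0.987 (FDR 0.679). An event listed as mutually exclusive sets exons of 255 and 198 nt against each other, and was named here after its values were seen. The share of the exon of 198 nt, the exon of the event before it, was 0.324 and 0.289 against 0.436 and 0.399 (FDR 0.434). The exon of 255 nt thus had a smaller share with CHERP siRNA than with EGFP siRNA. By its own skipped exon events, the exon of 255 nt was included at 0.971 or more in every library. The reads of the pair are also counted in a further skipped exon event of each exon. In all 3 events the groups did not overlap, and none passed the FDR. In the cytoplasm the event with the smallest p was an exon of 238 nt, exon 12, at 1 and 0.79 against 1 and 1 on 17 to 44 reads (FDR 0.761).

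ATP2B4 carries an exon of 178 nt near the end of the coding sequence. Skipping it gives the widespread PMCA4b and including it gives PMCA4a, which has a different calmodulin-binding tail. In U2OS cells it was mostly skipped, at 0.0668 and 0.031 against 0.0272 and 0.222 on 15 to 29 reads. The second CHERP siRNA library stood above the others, and the log2 odds ratio of 1.15 had an interval from -1.66 to 3.96. The smallest p of the gene belonged to an exon of 108 nt, exon 19 of 21, at 1 and 1 against 0.893 and 0.916 (FDR 0.783).

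The CaMKII genes held most of the intermediate exons. CaMKII isoforms differ mainly in a variable linker between the kinase and the hub domains, and its exons decide where the enzyme goes. In CAMK2D, the exon of 42 nt was at 0 and 0.0139 against 0.0156 and 0.0134 in whole cells on 112 to 349 reads. Nearly all reads of the event were on the form without it, with either siRNA. An exon of 96 nt near the end of the gene, exon 20 of 21 and partly coding, was at 0.353 and 0.407 against 0.293 and 0.213. The CHERP siRNA libraries were lower and did not overlap the controls, with a log2 odds ratio of -0.84 (SE 0.492, FDR 0.783). In the cytoplasm the same exon was at 0.236 and 0.282 against 0.195 and 0.29, and the groups overlapped. An alternative 5′ splice site that lengthens an exon by 44 nt was used at 0 and 0.145 against 0.202 and 0.33 in the cytoplasm (FDR 0.828), and at 0.122 and 0.386 against 0.324 and 0.282 in whole cells. A pair of mutually exclusive exons of 73 nt each, named after its values were seen, had the other unadjusted p under 0.05 in the cytoplasm. The share of the more-read exon was 1 and 0.941 against 1 and 1 there (FDR 0.514), and it was also the event with an unadjusted p under 0.05 between fractions (FDR 0.8). An exon of 46 nt, a shorter form of an exon of 49 nt, was at 0.773 and 1 against 1 and 0.956 in whole cells, where the groups overlapped. The form of 49 nt, set against the same skipping reads, was at 0.969 and 1 against 1 and 0.992.

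In CAMK2G, the linker exon of 69 nt was included at 0.928 and 0.883 against 0.828 and 0.941 in whole cells on 60 to 74 reads. The exon of 27 nt, which is the same exon cut short at its end, was at 0.849 and 0.669 against 0.716 and 0.827 on 17 to 32 reads. Both forms are set against the same skipping reads. Set against each other in whole cells, the longer form was at 0.768 and 0.898 against 0.756 and 0.831. For both exons the groups overlapped in whole cells. In the cytoplasm they did not, at 0.907 and 1 against 0.854 and 0.888 for the exon of 69 nt and at 0.826 and 1 against 0.728 and 0.646 for that of 27 nt, the latter on 7 to 18 reads, and the FDR of both was 0.761. An exon of 114 nt was mostly skipped, at 0.082 and 0.087 against 0.0723 and 0.117, and an exon of 687 nt found in transcripts without an annotated coding sequence was at 0.548 and 1 against 0.609 and 0.518. The smallest p values of the gene were those of an exon of 86 nt in whole cells, known from transcripts marked for nonsense-mediated decay, at 0 and 0 against 0.0283 and 0.0428 (FDR 0.783), and of an exon of 45 nt in the cytoplasm, at 1 and 1 against 1 and 0.922 (FDR 0.761).

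**Figure D3:**
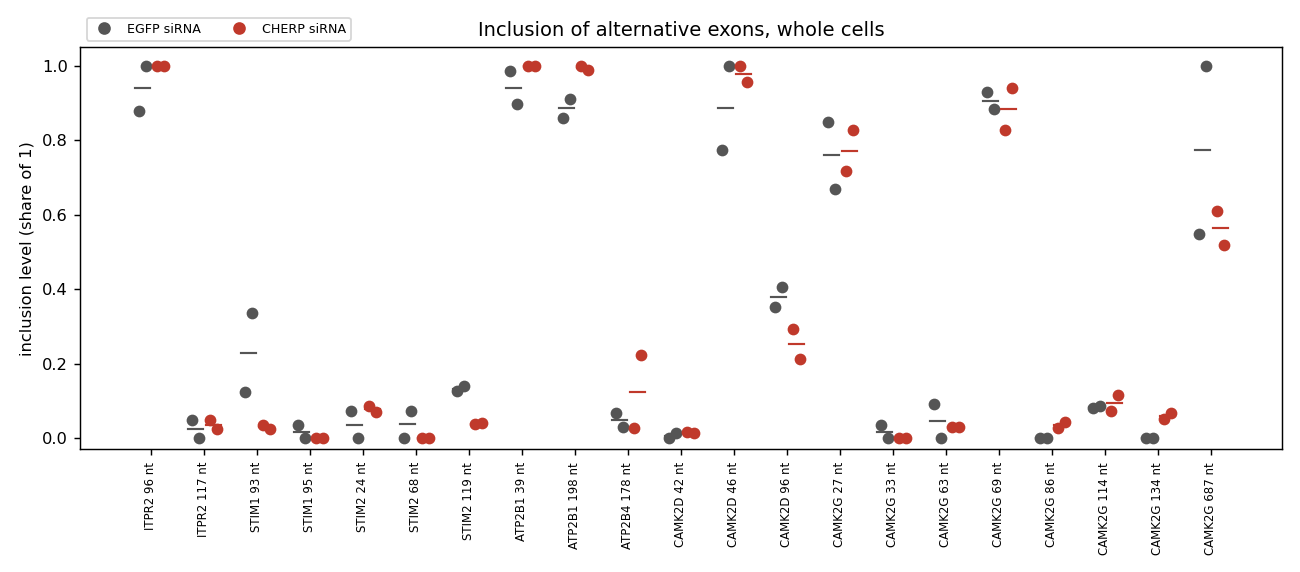
Inclusion level (share of 1) in whole cells of the 21 member exons that averaged 15 reads or more and were below 0.9 in at least 1 EGFP siRNA library, named by gene and length, with points for libraries and bars for the mean of 2. The groups overlap for 14 exons and not for 7, among them STIM1 93 nt, STIM2 119 nt and CAMK2D 96 nt (lower with CHERP siRNA) and both ATP2B1 exons (higher), and none passed an FDR of 0.05. With 2 libraries a group, such separation is frequent without any change, and its share over all exons was not counted. Each ATP2B1 exon was below 0.9 in only 1 EGFP siRNA library, at 0.897 (39 nt) and 0.86 (198 nt). Choosing exons by a low control library favours a higher level with CHERP siRNA.

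The IP3 receptor and ER pump genes had few reads on alternative forms. A coding exon of 111 nt in ITPR1, exon 48 of 62, named after its values were seen, was at 1 and 1 against 0.647 and 0.47 on 11 to 18 reads (FDR 0.783). Its skipping was seen in 4 and 7 reads of the CHERP siRNA libraries and in no control read, where 11 reads were counted in each. The ITPR1 exon of 161 nt was at 1 and 1 against 0.98 and 1. In ITPR2 the exon of 96 nt was at 0.878 and 1 against 1 and 1, in ITPR3 the exon of 111 nt at 1 and 1 against 0.969 and 1, and the cytoplasmic exon of 170 nt at 1 and 0.923 against 1 and 1. ATP2A2 had inclusion levels of 0.994 and 1 against 1 and 1 for its exon of 139 nt in whole cells and of 1 and 1 against 0.928 and 1 for its exon of 18 nt in the cytoplasm. In STIM1 and STIM2, the events of smallest p beside those above were exons of 178 nt, at 1 and 1 against 1 and 0.932 in the cytoplasm and at 1 and 1 against 0.888 and 1 in whole cells. For exons near full inclusion that had few reads, a change of a few percent could be missed, and no limit of detection was computed.

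Among 46 member exons averaging 20 reads or more in whole cells, 32 were included at 0.9 or more with EGFP siRNA, 8 at 0.1 or less and 6 in between. The shares of 69.6%, 17.4% and 13% stand beside 76.5%, 11.2% and 12.3% of 39653 exons of all genes. Of the 46 exons, 27 (58.7%) had a length that is a multiple of 3, beside 40.7% of all exons. In the cytoplasm it was 11 of 20 (55%) beside 44%. The median length was 104 nt for members and 115 nt for all exons in whole cells. No test was run on these shares, and several exons belong to 1 gene.

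A list of 86 other calcium genes was read from the same fits. In whole cells 60 were tested, 16 rose and 11 fell, beside 19.0% and 17.7% of all genes tested. In the cytoplasm 46 were tested, 18 rose and 11 fell, beside 25.8% and 22.5% of all genes. Whether the list differs from all genes was not tested. The medians were 0.06 and 0.08 on the log2 scale. The balance in whole cells was not stable. Scaled by total reads 13 rose and 13 fell, without the second CHERP siRNA library 6 rose and 9 fell, without the first 12 rose and 5 fell, and without a trend of the variance 16 in place of 27 were called. The ER calcium-binding proteins and chaperones had the most calls, with 6 higher and 2 lower of 12 in whole cells and 7 higher and 3 lower of 13 in the cytoplasm.

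Calreticulin (CALR), the main calcium buffer in the ER lumen, was at 4581 and 3634 in the whole-cell controls, against 10191 and 9567 after CHERP siRNA. The log2 fold was 1.27 (SE 0.13), and in the cytoplasm 1.34 (SE 0.08), with no overlap in either fraction. INPP5A, which breaks down IP3, was at 99.2 and 117 against 343 and 283 in whole cells, and its log2 folds were 1.49 and 2.01. The transcription factor gene NFATC2, a target of calcineurin, had the largest rise in whole cells (log2 fold 1.98, SE 0.44) on a mean of 28 reads, and the mitochondrial exchanger gene SLC8B1 rose in the cytoplasm (log2 fold 0.91).

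The largest falls were those of PLCE1, a phospholipase C that produces IP3, CAMK4, a kinase driven by calmodulin, and NFATC4 in whole cells, at log2 folds of -1.55, -1.48 and -1.48. In the cytoplasm they were those of CAMK4 (-1.84) and of MICU2 (-1.28) and MCUB (-1.06), which regulate calcium uptake by mitochondria. By role, 3 of 6 uniporter genes fell and 1 rose in each fraction. Of the genes of calmodulin, its kinases and calcineurin, 1 rose and 4 fell of 18 in whole cells, and none rose and 3 fell of 10 in the cytoplasm. Of the genes of IP3 production and receptor regulation, 3 rose and 1 fell of 9, and 5 rose and none fell of 7. Other channels and pumps rose in 3 of 10 and 3 of 6, with 1 lower in the cytoplasm, and in store-operated entry 2 rose and 1 fell of 5 and of 4. These counts by role rest on few genes and were not tested against the shares of all genes given above.

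**Figure D4:**
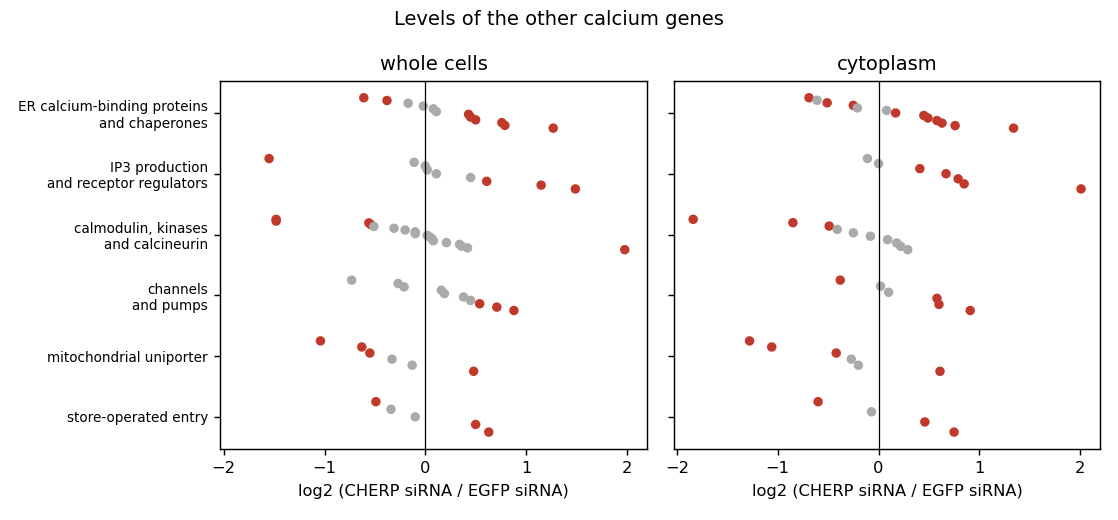
Log2 ratio of the level with CHERP siRNA over EGFP siRNA for the other calcium genes with enough reads, by role, in whole cells (left) and cytoplasm (right), each point being a gene and red an adjusted p under 0.05. Calls lie on both sides of 0 in most roles, with 16 higher and 11 lower in whole cells and 18 higher and 11 lower in the cytoplasm.

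Splicing calls in this list were 6 events of 5 genes among 505 in whole cells and 1 among 284 in the cytoplasm. Of all events, 1.12% and 0.416% were called, and whether the list differs from them was not tested. None of the calls in the list passed with limma on the odds. That test called 0 of all 89379 events in whole cells and 0 of all 43559 in the cytoplasm. A CALM2 exon of 46 nt (chr2:47399553-47399598), in a gene for calmodulin, was at 0.00702 and 0.00903 against 0.068 and 0.0695 in whole cells on 5809 to 8162 reads (FDR 1.39e-88). In the cytoplasm it was at 0.0536 and 0.0756 against 0.251 and 0.356 (FDR 0.00226). The exon of 30 nt of PPP3CB, a calcineurin catalytic subunit, rose from 0.562 and 0.58 to 0.958 and 0.921 on 57 to 136 reads (FDR 0.00241). An exon of 54 nt of RCN2, an ER calcium-binding protein, was at 0.014 and 0.0119 against 0.047 and 0.0697 (FDR 0.000196). SARAF had 2 events, an alternative 5′ splice site of 40 nt at 0.972 and 0.966 against 0.993 and 0.996 and an overlapping pair of mutually exclusive exons at 0.978 and 0.964 against 0.994 and 0.996. SARAF slows store-operated calcium entry. The groups did not overlap in these events, but did in the sixth whole-cell call, a pair of CALR exons at 0.207 and 0.0737 against 0.0831 and 0.0956 (FDR 0.0161), named after its values were seen.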

How the data were processed

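RNA of U2OS cells was sequenced from stranded TruSeq mRNA libraries. Per the methods, the authors mapped reads to hg19 with STAR (2.5.2b), ran rMATS and, for cytoplasmic expression, RSEM (1.2.25) with GENCODE v19 and EBSeq. The rMATS version is not given in the sources used here. The deposited rMATS tables give inclusion and skipping reads per library and effective lengths, and hold 20 columns of inclusion levels that were not used. The deposited EBSeq table gives the mean of normalized counts per condition, for listed genes only. The authors' p-values, FDR, fold changes and posterior probabilities in these tables were not used. A table cell joins 2 libraries, biological replicates per the methods, without replicate numbers. How separate the cultures were is not given in the sources used here. The p-values of levels rest on the spread between these libraries, moderated across genes. Those of events rest on a spread shared by events of a type with similar read numbers, not on the spread of the single event.

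Inclusion against skipping reads were tested per event with a quasi-binomial model where each group had reads, its dispersion moderated by squeezeVar of limma 3.58.1 (R 4.3.3) with a trend on reads and a floor of 1, and the Benjamini-Hochberg method within event type. The moderation gave infinite prior degrees of freedom, so that the spread of a single event had no weight. Levels were tested with limma on log2(value + 0.01), with a trend of the variance, for genes averaging 20 reads or more per library, so folds of low genes are understated. 2 choices were made after a first version had been seen. Groups with reads on 1 form alone first gave residual degrees of freedom, and 0 of 63977 whole-cell SE events then passed, against 571. limma was first fitted without the trend and called 2579 genes in whole cells and 2842 in the cytoplasm, against 3546 and 3523, and the trend was then taken with the members' values known. Both first versions are given as alternatives.

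Named were all 10 members, member events past FDR 0.05, each member's event of smallest p per fraction with at least 20 reads, exons between 0.1 and 0.9 in controls and, of the other calcium genes, the 3 largest called rises and falls and up to 5 called events per fraction. The STIM2 exon of 24 nt, the ATP2B4 exon of 178 nt, the CAMK2D exon of 42 nt and the CAMK2G exons of 69 and 114 nt were added after their values were seen. Members and lists were chosen with earlier results of these data known. Tests were checked on simulated data. Intervals cover the spread of the fit, at 95%.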

Additional observations from a re-analysis of the deposited data

How the results depend on the processing

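The absence of member events past FDR 0.05 held under every alternative in whole cells, in the cytoplasm and between fractions. As few events of any gene were called, this says little of the members. Limma on the odds called 0 of all 89379 whole-cell and 0 of all 43559 cytoplasmic events. With residual degrees of freedom also from groups with 1 form, 2 and 0 of all events were called. The number of members called by level was 2 to 5 over the whole-cell fits that left out a library and 2 to 3 in the cytoplasm, against 4 and 3. CHERP kept its fall, from -4.29 to -2.60 in whole cells and from -2.91 to -2.42 in the cytoplasm, where the filter allowed no other alternative. Calcium list events numbered 6 and 1, fell to 0 and 0 with limma on the odds and to 0 and 0 with residual degrees of freedom also from groups with 1 form (added after seeing the data), were 2 in the cytoplasm with the dispersion of events with 10 reads of the rarer form, and ran from 2 to 10 and from 0 to 1 without a library. Calcium list levels gave 27 calls in whole cells, 16 without a trend (also added) and 15 to 32 without a library, and 24 to 31 in the cytoplasm. The cause of these shifts was not tested.

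Values that turned sign were all of results that did not pass. CAMK2G in whole cells was -0.03 scaled by total reads, -0.14 with the most-read event and -0.07 with the inclusion form only. With the most-read event STIM2 was 0.34 in whole cells and STIM1 0.34 in the cytoplasm, and the differences between fractions were 0.39 for CAMK2D, 0.22 for CAMK2G and -0.00 for ATP2A2, which was -0.04 scaled by total reads. The CAMK2G exon of 27 nt was at 0.06 by limma on the odds. Without a library, ATP2B4 ran from -0.18 to 0.70, CAMK2G from -0.14 to 0.16 and STIM1 from -0.47 to 0.25 in whole cells. Between fractions ATP2A2 ran from -0.09 to 0.14, ATP2B1 from -0.11 to 0.27, CAMK2D from -0.31 to 0.10, CAMK2G from -0.32 to 0.12 and STIM1 from -0.67 to 0.03. Among events, the CAMK2D exon of 96 nt in the cytoplasm ran from -0.50 to 0.24, and the CAMK2G exons of 687 and 27 nt from -2.89 to 0.25 and from -0.70 to 0.67. No paired analysis was possible because the columns carry no replicate number. Cytoplasmic libraries held at most 6580099 reads on all events together, where events can share reads. With 2 libraries a group, small changes of exons with few reads could be missed.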
